A study of Mus musculus with 39 samples.

Results

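The lungs of Cd177 knockout (KO) mice were compared with those of wild-type (WT) mice, both after a sham operation. Libraries came from 5 KO sham and 5 WT sham lungs, 10 of the 39 libraries in a study of acute pancreatitis that also sequenced colons and a group labelled AP. The statistical fit also held the 5 KO AP and 5 WT AP lungs. All mice are labelled as C57BL/6N. The KO allele is not described further in the labels, which give no age or litter of the animals. Nothing in the labels says that the numbered libraries of a group came from separate animals, so the p-values measure the spread between these libraries. Of 55357 genes in the lung table, 15978 had at least 1 FPKM (fragments per kilobase of transcript, scaled to the reads of the library) in at least 4 of the 20 lung libraries and were tested.

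CD177 is a glycosylphosphatidylinositol-anchored glycoprotein on the surface of neutrophils, where it presents proteinase 3, associates with the integrin Mac-1 and binds PECAM1 on endothelial cells. The lung holds a large pool of marginated neutrophils in its capillaries, next to the thin alveolar type 1 cells that carry gas exchange and the type 2 cells that make surfactant. When epithelial cells meet oxidants or electrophiles, the transcription factor NRF2 (gene Nfe2l2) escapes its inhibitor KEAP1 and switches on genes for glutathione synthesis, NADPH supply and detoxification.

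In sham lung 9393 genes differed between the genotypes at a limma adjusted p under 0.05, which is 58.8% of those tested. Of these, 4606 (28.8%) were higher and 4787 (30%) lower in KO sham lungs. A change of at least 2-fold was called for 2582 genes (16.2%), 1299 of them higher (8.13%) and 1283 lower (8.03%). The median log2 difference over all tested genes was -0.01. For 6682 genes (41.8%) the 5 KO sham values lay entirely above or entirely below the 5 WT sham values. With so many genes called, the share of a gene group that was called is read below against 28.8% and 30%. When each library was rescaled to TPM, in which the values of every library have the same total, the median shifted to -0.26 and the split became 2891 higher and 6209 lower, so that 31.8% in place of 49.0% of the calls were higher. List counts and medians under TPM scaling carry this shift of all genes and are to be read against it, not against 28.8% and 30%.

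The KO sham libraries were sequenced more deeply, at 88.4 ± 6.63 megareads (SD, n = 5) recovered from the FPKM steps, than the WT sham libraries at 63.0 ± 5.10 megareads, with no overlap (exact two-sided permutation p = 0.00794, the smallest that 5 against 5 can give). Depth, genotype and any processing batch that went with them therefore cannot be told apart here, in the calls above and below. A value above 0 was present for 23395 ± 1256 genes in KO sham and 25169 ± 471 in WT sham libraries (exact permutation p = 0.0159), and mitochondrial transcripts made up 6.01 ± 2.35% and 5.51 ± 0.747% of the FPKM sum (exact permutation p = 0.675). The KO sham lungs were also more varied: each one's mean correlation with the rest of its own group was 0.936 to 0.962, against 0.980 to 0.988 in WT sham lungs. KO replicates 4 and 5 fell under 0.94, and list counts without them are given for the lists described at length and wherever they moved by over 1.5 times. KO replicate 1, at 0.943, was just above that limit and was kept. KO replicate 4 was often the KO lung nearest to the WT sham lungs, as given below, so leaving it out can enlarge differences. The tissue label held, since the surfactant gene Sftpc was at 10205 to 71298 FPKM in KO sham and 13696 to 22230.1 FPKM in WT sham lungs, and the club cell secretoglobin Scgb1a1 at 25082 to 75845 FPKM in KO sham and 41038 to 67214 FPKM in WT sham lungs.

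Cd177 itself was at 0 FPKM in all 5 KO sham lungs and at 3.59, 1.75, 2.02, 1.30 and 1.39 FPKM in WT sham lungs. The groups did not overlap (exact two-sided permutation p = 0.00794). The values follow the genotype labels, at a log2 difference of -1.54 on the log2(FPKM + 1) scale, which understates changes of low genes. Of the 10 genes flanking Cd177 in the RefSeq order, 6 were in the table and 1 passed the filter: the predicted gene Gm9844 had 12.6, 10.7, 8.86, 17.9 and 36.5 FPKM in the KO sham lungs, against 5.93, 5.56, 4.74, 8.20 and 6.51 FPKM in the WT sham lungs (log2 difference 1.19 ± 0.27 SE, adjusted p = 0.00087).

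A list held genes of CD177 partners along with Icam1 and Plaur. All 6 were called, 2 higher and 4 lower, where 58.8% of all genes tested were called. PECAM1 is the endothelial ligand, and Pecam1 had 52.2, 94.9, 130.0, 176 and 132 FPKM in the KO sham lungs, against 254, 293, 285, 286 and 301 FPKM in the WT sham lungs (log2 difference -1.38 ± 0.22 SE, adjusted p = 3.6e-05). The subunits of Mac-1 were lower, with Itgam at 1.75 to 9.72 FPKM in KO sham and 3.65 to 10.6 FPKM in WT sham lungs (log2 difference -0.81 ± 0.31 SE, adjusted p = 0.033) and Itgb2 at 8.35 to 28.2 FPKM in KO sham and 20.3 to 40.8 FPKM in WT sham lungs (log2 difference -0.99 ± 0.31 SE, adjusted p = 0.011). Icam1, a counter-receptor of that integrin, was also lower, with a log2 difference of -0.82. Prtn3, which encodes proteinase 3, was higher at 2.28 to 9.75 FPKM in KO sham and 1.07 to 2.74 FPKM in WT sham lungs (log2 difference 0.90 ± 0.30 SE, adjusted p = 0.014), as was Plaur, the urokinase receptor, with a log2 difference of 0.65. Without KO replicates 4 and 5 these 6 genes were 0 higher and 4 lower, and after a correction for transcript length 0 higher and 3 lower. Prtn3 and Plaur lost their calls both times. Plaur also lost its call under TPM scaling. Itgam missed the threshold without KO replicate 1, 2, 3 or 5 or without WT replicate 1 or 5, at adjusted p up to 0.23 over the alternatives. It also missed with the replicate number as a block, in the sham libraries alone, with weights per group, with no filter on low values and after the length correction.

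Genes that NRF2 is known to switch on were among those that rose, and the promoter stretches below show the letters that its binding motif matches in them. NRF2 binds the antioxidant response element, searched here as TGACNNNGC on both strands from 250 bases before to 50 bases after each gene start (RefSeq promoters, GRCm38.p6), so that a match on the opposite strand appears as the reverse complement. It was present in 8 of the 16 NRF2 list members with a promoter (50%), in 4 of 20 glutathione transferase genes (20%) and in 3781 of 27025 genes overall (14.0%). The NRF2 list was made of known targets, so a high share there follows from how it was chosen and says nothing about KO sham lungs. Of the 8 NRF2 list members with a match, 7 were higher in KO sham lungs and G6pdx was not called, which is close to the 17 of 20 higher over the whole list. Of the 4 glutathione transferase genes with a match, Gstm5 and Mgst1 were higher, and Gsta3 and Gstm7 were not called (adjusted p = 0.25 and 0.11). The stretches are those of all 8 NRF2 list members, written along the gene's own strand with the match in capitals, G6pdx last. Ugdh has 2 matches, of which the first is shown.
Gclm, chr3:122245398-122245456, + strand: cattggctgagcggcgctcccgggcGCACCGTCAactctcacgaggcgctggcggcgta
Txnrd1, chr10:82859089-82859147, + strand: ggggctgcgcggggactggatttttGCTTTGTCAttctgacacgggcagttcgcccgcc
Srxn1, chr2:152105527-152105573, + strand: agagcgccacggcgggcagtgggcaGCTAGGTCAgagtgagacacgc
Prdx1, chr4:116685441-116685499, + strand: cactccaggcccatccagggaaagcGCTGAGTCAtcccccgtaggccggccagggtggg
Me1, chr9:86695887-86695945, - strand: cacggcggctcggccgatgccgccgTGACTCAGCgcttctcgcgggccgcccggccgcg
Pgd, chr4:149166046-149166104, - strand: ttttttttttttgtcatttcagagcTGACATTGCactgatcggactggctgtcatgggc
Ugdh, chr5:65435941-65435999, - strand: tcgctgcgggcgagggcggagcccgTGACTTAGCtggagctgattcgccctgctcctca
G6pdx, chrX:74428904-74428962, - strand: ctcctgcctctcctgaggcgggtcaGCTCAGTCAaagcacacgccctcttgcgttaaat
Each shows the letters only, and binding was not measured. The matches of Srxn1 and Pgd begin after the gene start, at bases 29 and 4. The letters of the Pgd stretch read as the end of an intron followed by coding sequence. That match may therefore not lie in a promoter, though it is counted among the 8.

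Genes of the NRF2 programme rose together in KO sham lungs: 17 of the 20 tested members were higher and 1 lower, with a median log2 difference of 1.42. Slc7a11, the cystine importer that feeds glutathione synthesis, had 45.9, 22.1, 8.51, 0.329 and 15.2 FPKM in the KO sham lungs, against 0.126, 0.217, 0.117, 0.130 and 0.0970 FPKM in the WT sham lungs (log2 difference 3.37 ± 0.69 SE, adjusted p = 0.00037). Srxn1, which repairs oxidised peroxiredoxins, had 212, 122, 49.8, 10.9 and 68.7 FPKM in the KO sham lungs, against 8.61, 9.39, 7.97, 8.64 and 8.56 FPKM in the WT sham lungs (log2 difference 2.74 ± 0.55 SE, adjusted p = 0.00034). In both genes KO replicate 1 was the highest and KO replicate 4 the lowest, and even KO replicate 4 stood above every WT sham lung. The subunits of the glutathione-making ligase were higher as well, with Gclm at 96.7, 57.2, 35.4, 11.9 and 25 FPKM in the KO sham lungs, against 9.17, 9.50, 8.61, 9.28 and 9.77 FPKM in the WT sham lungs (log2 difference 1.85 ± 0.37 SE, adjusted p = 0.0003), and Gclc at a log2 difference of 1.30.

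Enzymes of the pentose phosphate pathway, whose oxidative branch makes NADPH, were not uniform. G6pdx, the first enzyme of that branch, was not called (10.7 to 35.2 FPKM in KO sham and 16.5 to 19.4 FPKM in WT sham lungs, adjusted p = 0.55), whereas Pgd, the other NADPH-producing enzyme of the branch, had a log2 difference of 1.84. In the non-oxidative branch, which makes no NADPH, the transaldolase gene Taldo1 had 880.4, 602, 408, 224 and 745 FPKM in the KO sham lungs, against 94.3, 87.9, 87.4, 85 and 88.3 FPKM in the WT sham lungs (log2 difference 2.53 ± 0.29 SE, adjusted p = 1.3e-06), with the groups far apart. The transketolase gene Tkt had a log2 difference of 1.29. Me1, the cytosolic malic enzyme and another source of NADPH, had a log2 difference of 0.71, and Ugdh, which makes UDP-glucuronate, of 0.51. Among detoxifying and antioxidant members, Nqo1 had a log2 difference of 2.04, Cbr3 of 3.06, Prdx1 of 1.84, Akr1b8 of 2.03, Gsr of 1.39 and Hmox1 of 1.46. Slc6a6, the taurine transporter, was the member that fell (log2 difference -1.10 ± 0.13 SE, adjusted p = 1.4e-06), and catalase (Cat) was not called (adjusted p = 0.42). The transcript of NRF2, Nfe2l2, was at 64.4 to 86.7 FPKM in KO sham and 62.1 to 72 FPKM in WT sham lungs, and that of Keap1 at 19.9 to 26.3 FPKM in KO sham and 23.9 to 25.1 FPKM in WT sham lungs. Neither was called, and both were looked up after the values of the list were seen. The list held 17 higher and 1 lower without KO replicates 4 and 5, and 13 higher and 1 lower under TPM scaling. The calls of Me1 and Txnrd1 were lost under that scaling and without KO replicate 1 or 2, and that of Me1 also without WT replicate 1, 3 or 4 (adjusted p up to 0.183 for Me1 and 0.102 for Txnrd1 over the alternatives). The call of Ugdh was lost under TPM scaling.

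Glutathione transferases, which attach glutathione to electrophiles, included the largest log2 difference among the 15 named rises. Gsta1 had 554, 351, 163, 0.684 and 377 FPKM in the KO sham lungs, against 0.369, 0.553, 0.359, 0.624 and 0.409 FPKM in the WT sham lungs (log2 difference 6.30 ± 1.06 SE, adjusted p = 5.7e-05). The other 4 KO sham lungs were far above every WT sham lung, whereas KO replicate 4 at 0.684 FPKM was just above the highest WT sham lung at 0.624. Gsta2 had 223, 155, 85.3, 7.42 and 129 FPKM in the KO sham lungs, against 3.13, 5.44, 5.43, 4.60 and 4.28 FPKM in the WT sham lungs (log2 difference 3.86 ± 0.59 SE, adjusted p = 2.3e-05). Near-identical copies of the alpha and of the pi class share sequence, so how reads were divided among Gsta1 and Gsta2, or Gstp1 and Gstp2, is uncertain.

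Across the family 14 of the 22 tested members were higher and 0 lower, with a median log2 difference of 0.90. Gstp1 had 946, 665, 419.8, 253 and 814 FPKM in the KO sham lungs, against 116, 127, 103, 120.0 and 132 FPKM in the WT sham lungs (log2 difference 2.22 ± 0.26 SE, adjusted p = 1.5e-06), and Gsta4, which acts on lipid peroxidation aldehydes, had a log2 difference of 2.47. Gsto1 and the membrane-bound Mgst1 rose by 2.29 and 1.10 on the log2 scale. The mu class was mixed: Gstm4, Gstm5 and Gstm3 were higher, by log2 differences of 1.12, 1.20 and 0.82, whereas Gstm1 at 237 to 556 FPKM in KO sham and 295 to 375 FPKM in WT sham lungs and Gstm2 at 83.2 to 113 FPKM in KO sham and 95.3 to 132 FPKM in WT sham lungs were not called. The theta member Gstt1 and the zeta member Gstz1 were not called either. The family held 16 higher and 0 lower without KO replicates 4 and 5, and 12 higher and 2 lower under TPM scaling.

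**Figure D1:**
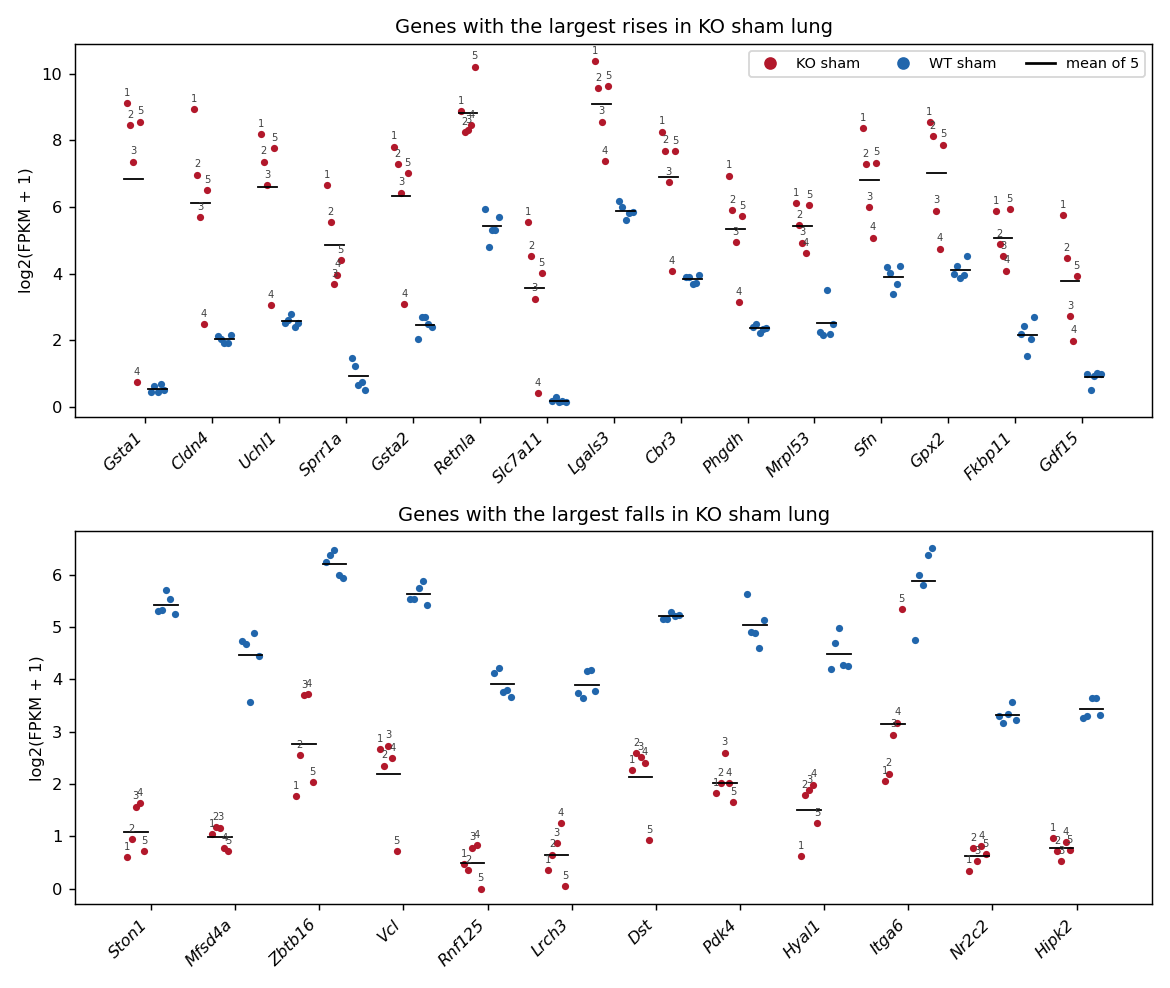
Values of the genes with the largest rises (upper panel) and falls named in the text (lower panel, without Nnt and Sept2), as log2(FPKM + 1) on the y axis, with KO sham lungs in red left of WT sham lungs in blue, 5 libraries each, numbers marking the KO replicates and black lines the group means. In the upper panel KO replicate 4 is the KO lung nearest to the WT sham lungs in 13 of the 15 genes, and KO replicate 1 the farthest in 13.

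The KO sham lungs did not lie equally far from the WT sham lungs, and their order changed with the genes counted. These genes were picked by the size of their difference in the same libraries, so libraries with extreme values weigh more among them. Among the 15 largest rises, KO replicate 1 was farthest from the WT mean in 13 and KO replicate 4 nearest to it in 13. Among the 15 largest falls the order was looser, with KO replicates 1 and 5 farthest in 6 each and KO replicate 4 nearest in 7. Over the 1299 genes called at least 2-fold higher, KO replicate 4 was nearest in 67.5%, KO replicate 5 farthest in 52.4% and KO replicate 1 farthest in 42.6%. Over the 1283 called at least 2-fold lower, KO replicate 4 was nearest in 52.7% and KO replicate 1 farthest in 57.4%. What sets these lungs apart from each other was not tested, and replicate numbers carry no order.

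**Figure D2:**
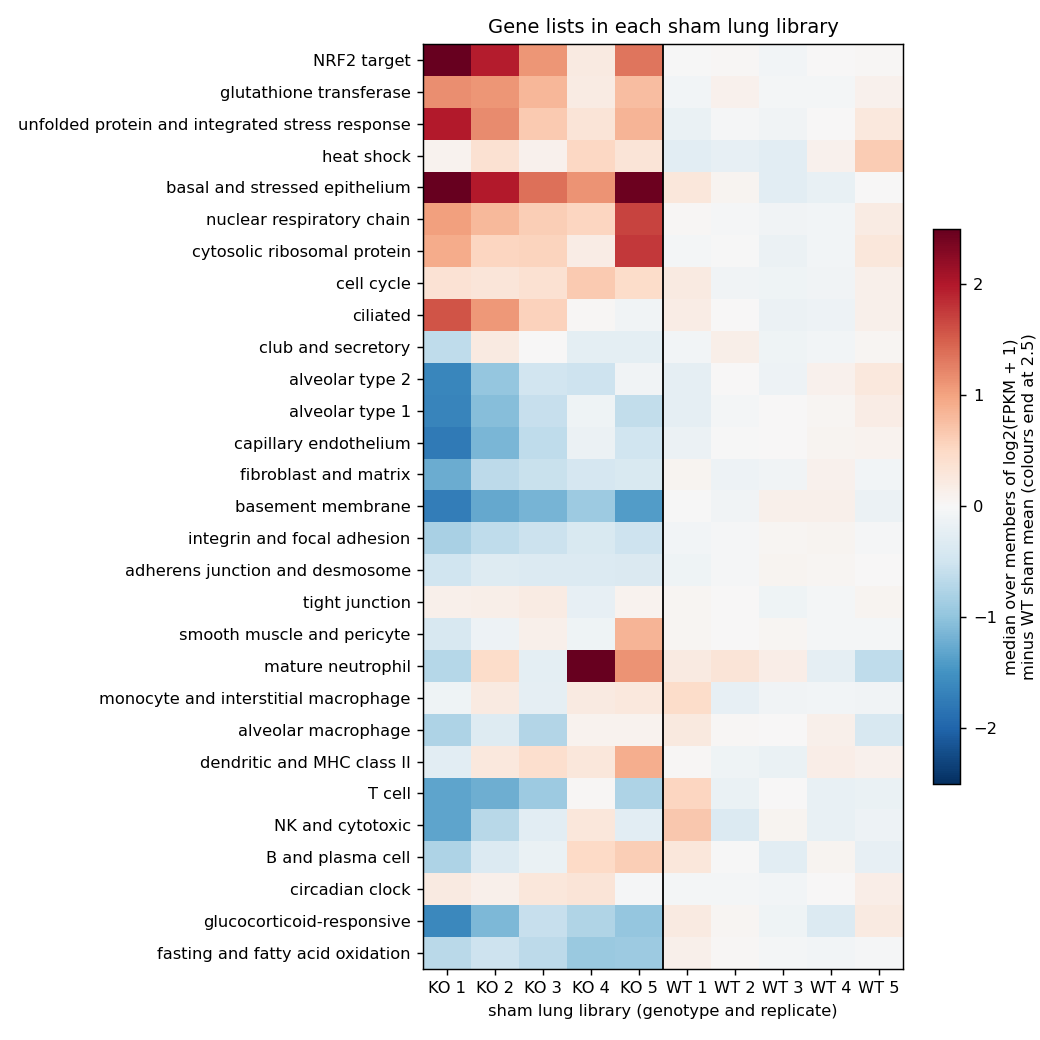
Each row is a gene list and each column a sham lung library, KO 1 to 5 left of WT 1 to 5, and the colour is the median over the tested members of log2(FPKM + 1) minus the WT sham mean. Red rows (NRF2, glutathione transferase, stressed epithelium) are deepest in KO 1 and palest in KO 4, whereas mature neutrophil genes are deepest in KO 4.

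Genes of the unfolded protein and integrated stress responses, which cells use when the endoplasmic reticulum is overloaded or amino acids run short, were also higher: 13 of the 17 tested members were higher and 0 lower, with a median log2 difference of 1.08. Asns, the asparagine synthetase induced by ATF4, had 83.5, 44.5, 24.2, 12.6 and 36.1 FPKM in the KO sham lungs, against 6.43, 7.95, 6.54, 7.01 and 8.17 FPKM in the WT sham lungs (log2 difference 2.08 ± 0.34 SE, adjusted p = 4.8e-05). Hspa5, the main chaperone of the endoplasmic reticulum, had 828, 344, 217, 137 and 359 FPKM in the KO sham lungs, against 105, 114, 108, 135 and 141 FPKM in the WT sham lungs (log2 difference 1.38 ± 0.38 SE, adjusted p = 0.0044). The groups were apart for Asns and overlapped for Hspa5, where KO replicate 4 lay within the WT range. Sdf2l1 and Manf, secreted or luminal folding factors, had log2 differences of 2.29 and 1.78. The transcription factor Atf4 was at 342, 209, 147, 165 and 168 FPKM in the KO sham lungs, against 85.4, 105, 80.3, 80.8 and 118 FPKM in the WT sham lungs (log2 difference 1.07 ± 0.20 SE, adjusted p = 0.0002).

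Trib3, Ddit3 and Chac1, targets of ATF4, had log2 differences of 2.05, 1.20 and 1.08. The endoplasmic reticulum genes Xbp1 and Dnajb9 were not called (adjusted p = 0.59 and 0.38). Phgdh, the first enzyme of serine synthesis, was among the 15 largest rises with 122, 59.4, 29.9, 7.83 and 51.5 FPKM in the KO sham lungs, against 4.28, 4.66, 3.65, 4.09 and 4.11 FPKM in the WT sham lungs (log2 difference 2.97 ± 0.53 SE, adjusted p = 0.00011). Psat1 and Shmt2, the next steps of serine and one-carbon metabolism, were looked up after that value was seen and had log2 differences of 2.33 and 1.44. Gdf15, a stress-induced secreted factor, had 53.3, 20.9, 5.64, 2.98 and 14.2 FPKM in the KO sham lungs, against 0.972, 0.425, 0.911, 1.02 and 0.979 FPKM in the WT sham lungs (log2 difference 2.89 ± 0.55 SE, adjusted p = 0.00021), and Fkbp11, a chaperone of the secretory pathway, a log2 difference of 2.89. The counts were 14 higher and 0 lower without KO replicates 4 and 5.

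Epithelial genes moved in opposite directions. Of the genes that mark basal cells or injured, transitional alveolar epithelium, 9 of the 11 tested members were higher and 0 lower, with a median log2 difference of 1.99. Sprr1a, a cornified envelope protein, had 99.9, 45.7, 11.9, 14.7 and 20.02 FPKM in the KO sham lungs, against 1.79, 1.33, 0.575, 0.677 and 0.424 FPKM in the WT sham lungs (log2 difference 3.93 ± 0.56 SE, adjusted p = 1.1e-05). Cldn4, a tight junction claudin, had 488, 124, 50.8, 4.56 and 89.4 FPKM in the KO sham lungs, against 3.39, 3.07, 2.80, 2.75 and 3.47 FPKM in the WT sham lungs (log2 difference 4.08 ± 0.76 SE, adjusted p = 0.00016). Both were higher in each KO sham lung than in any WT sham lung, but for Cldn4 KO replicate 4 at 4.56 FPKM was close to the highest WT value of 3.47.

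The simple keratins were higher in the same lungs. Krt19 had 926, 553, 351, 197 and 949 FPKM in the KO sham lungs, against 127, 95, 83.3, 74.6 and 80.6 FPKM in the WT sham lungs (log2 difference 2.48 ± 0.34 SE, adjusted p = 7.1e-06), and Krt8, Krt18 and Krt7 had log2 differences of 1.87, 1.63 and 0.87. Lgals3, encoding galectin 3, had 1329, 754, 376, 165 and 788 FPKM in the KO sham lungs, against 71, 63.1, 47.4, 55.9 and 56.4 FPKM in the WT sham lungs (log2 difference 3.21 ± 0.44 SE, adjusted p = 7.8e-06). The 14-3-3 protein gene Sfn had a log2 difference of 2.91, and Areg, an epidermal growth factor receptor ligand, of 1.99. The basal cell genes Krt15 and Ly6d were not called (adjusted p = 0.66 and 0.16). Leaving out KO replicates 4 and 5 gave 9 higher and 0 lower. Among mesothelial markers, of cells that cover the lung, 3 of the 6 tested members were higher and 0 lower, with a median log2 difference of 0.74. Without KO replicates 4 and 5 they were 2 higher and 0 lower. Krt19 stands in both lists, and the mesothelial genes Wt1, Lrrn4 and Upk3b were not called. The lists did not follow each other across the KO sham lungs. Each library was given the median over members of log2(FPKM + 1) minus the WT sham mean. In replicate order it was 0.49, 0.13, 0.97, 0.97 and 1.07 for mesothelial genes, with WT replicate 1 at 0.72. For the stressed epithelium list it was 3.34, 1.98, 1.38, 1.12 and 2.45. Msln, mesothelin, was at 49.4 to 88.9 FPKM in KO sham and 24.5 to 90.0 FPKM in WT sham lungs (adjusted p = 0.043). Muc16, a membrane mucin, was at 3.25 to 12.3 FPKM in KO sham and 1.23 to 4.84 FPKM in WT sham lungs (adjusted p = 0.0083). Both overlapped between the groups. Msln missed the threshold under TPM scaling and when any single sham library other than KO replicate 2 or WT replicate 1 was left out, at adjusted p up to 0.175 over the alternatives. The summed mesothelial level, Krt19 included, was 319 to 1071 FPKM in KO sham and 124 to 247 FPKM in WT sham lungs. Its part in the epithelial result was not tested.

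Many alveolar genes were lower. Of the type 1 cell markers, 1 of the 15 tested members was higher and 9 lower, with a median log2 difference of -0.67. In a bulk sample fewer cells of a type and less RNA per cell cannot be told apart. Clic5, an intracellular channel protein gene of type 1 cells, had 25.5, 39, 57.4, 72.6 and 53.8 FPKM in the KO sham lungs, against 131, 149, 161, 175 and 180.3 FPKM in the WT sham lungs (log2 difference -1.74 ± 0.22 SE, adjusted p = 2.7e-06), and Emp2, a membrane protein of these cells, a log2 difference of -1.42. Aqp5, the water channel of type 1 cells, went the other way with 293, 285, 239.9, 243 and 356 FPKM in the KO sham lungs, against 106, 113, 107, 118 and 147 FPKM in the WT sham lungs (log2 difference 1.25 ± 0.17 SE, adjusted p = 8.8e-06). The defining markers Ager (385 to 2611 FPKM in KO sham and 1102 to 1434 FPKM in WT sham lungs) and Hopx (311 to 719.6 FPKM in KO sham and 509.5 to 693 FPKM in WT sham lungs) were not called (adjusted p = 0.69 and 0.32), so the list did not move as a block.

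Of the type 2 cell markers, 0 of the 15 tested members were higher and 9 lower, with a median log2 difference of -0.65. Abca3, the lipid pump of lamellar bodies, had 35.4, 46.1, 48.4, 40.0 and 53.5 FPKM in the KO sham lungs, against 102, 116, 113, 123 and 104 FPKM in the WT sham lungs (log2 difference -1.31 ± 0.14 SE, adjusted p = 5.4e-07). Slc34a2, the phosphate transporter of type 2 cells, had 82.7, 118, 292, 201 and 288 FPKM in the KO sham lungs, against 515, 654, 612, 734 and 686 FPKM in the WT sham lungs (log2 difference -1.85 ± 0.28 SE, adjusted p = 2.3e-05). In both genes every KO sham lung lay below every WT sham lung. The collectin Sftpd and the lamellar body protein gene Lamp3 had log2 differences of -0.88 and -0.93, whereas Sftpc and Sftpb, abundant surfactant transcripts, were not called (adjusted p = 0.21 and 0.63). Without KO replicates 4 and 5 the type 1 list held 2 higher and 12 lower and the type 2 list 1 higher and 11 lower.

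Airway genes differed by cell type. Of the ciliated cell markers, 6 of the 13 tested members were higher and 1 lower, with a median log2 difference of 0.59, and without KO replicates 4 and 5 the counts were 11 higher and 0 lower. Cfap126, a protein of the ciliary axoneme, had 127, 82.7, 77.3, 51.4 and 74.3 FPKM in the KO sham lungs, against 23.9, 18.6, 15.4, 20.2 and 26.8 FPKM in the WT sham lungs (log2 difference 1.89 ± 0.20 SE, adjusted p = 6.0e-07). Ccdc39, needed to assemble dynein arms, was the marker that fell, with a log2 difference of -0.74 (adjusted p = 0.062 without KO replicates 4 and 5), and Foxj1, the master regulator of cilia, was not called (adjusted p = 0.12). Among club and secretory cell genes 3 of the 13 tested members were higher and 3 lower, with a median log2 difference of -0.31, near or below the background. Only 1 was higher under TPM scaling or without KO replicate 1, 2 or 3 or WT replicate 1, 4 or 5. Hp, haptoglobin, was higher at 1449, 1262, 1263, 1092 and 2125 FPKM in the KO sham lungs, against 481, 548, 504, 495 and 590.0 FPKM in the WT sham lungs (log2 difference 1.42 ± 0.20 SE, adjusted p = 7.5e-06), while Scgb3a1, a secretoglobin, was lower, with a log2 difference of -1.98.

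Basement membrane genes fell without exception among those tested: 0 of the 15 tested members were higher and 15 lower, with a median log2 difference of -1.26. The sheet of type IV collagen, laminin and nidogen separates alveolar epithelium from capillary endothelium. Col4a3, a collagen chain of the alveolar membrane, had 1.76, 3.91, 4.86, 7.46 and 4.32 FPKM in the KO sham lungs, against 21.7, 24.1, 28.2, 32.1 and 27.1 FPKM in the WT sham lungs (log2 difference -2.42 ± 0.25 SE, adjusted p = 3.9e-07). Lama3, a laminin chain of epithelial anchorage, had 0.368, 0.833, 0.913, 2.12 and 1.15 FPKM in the KO sham lungs, against 12, 8.34, 11.9, 13.9 and 8.70 FPKM in the WT sham lungs (log2 difference -2.55 ± 0.29 SE, adjusted p = 9.2e-07), and the collagen chain Col4a1 a log2 difference of -2.27. In all 3 genes the groups were far apart. Nid1, the linker nidogen, had a log2 difference of -1.89 and Hspg2, perlecan, of -1.18. Leaving out KO replicates 4 and 5 gave 0 higher and 14 lower. After a correction for transcript length the list held 0 higher and 14 lower and its median was -0.79 in place of -1.26, with Hspg2 at -0.34 and Agrn no longer called (adjusted p = 0.099).

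The cell side of this anchorage was lower too. Among integrin and focal adhesion genes 2 of the 24 tested members were higher and 16 lower, with a median log2 difference of -0.56. Vcl, vinculin, which ties integrins to actin, had 5.36, 4.10, 5.65, 4.64 and 0.636 FPKM in the KO sham lungs, against 45.5, 45, 52.3, 57.7 and 41.9 FPKM in the WT sham lungs (log2 difference -3.43 ± 0.34 SE, adjusted p = 3.2e-07). The laminin receptor subunit Itga6 had 3.14, 3.58, 6.69, 8 and 39.5 FPKM in the KO sham lungs, against 25.9, 62.7, 54.8, 81.5 and 89.6 FPKM in the WT sham lungs (log2 difference -2.74 ± 0.60 SE, adjusted p = 0.00068), and KO replicate 5 at 39.5 FPKM lay inside the WT range. Tln1 and Itgb1, talin and the common beta subunit, had log2 differences of -1.05 and -0.91. Itgb4 and Itgb6, epithelial beta subunits, were the 2 that were higher, at 0.73 and 0.55 but not called under TPM scaling, and the focal adhesion kinase gene Ptk2 was not called (adjusted p = 0.99). The counts without KO replicates 4 and 5 were 3 higher and 15 lower, and without KO replicate 5 alone 4 were higher.

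Junction genes split by type. Dst, dystonin, which links hemidesmosomes to the cytoskeleton, had 3.82, 5.03, 4.68, 4.30 and 0.907 FPKM in the KO sham lungs, against 34.7, 34.6, 38.1, 36.1 and 36.3 FPKM in the WT sham lungs (log2 difference -3.07 ± 0.26 SE, adjusted p = 4.7e-08). Among adherens junction and desmosome genes 2 of the 14 tested members were higher and 9 lower, with a median log2 difference of -0.36, a median that was -0.21 after the length correction. Under TPM scaling that list held 0 higher and 10 lower. Cdh5, the endothelial cadherin, had a log2 difference of -2.40 and the catenin Ctnnd1 of -1.40, whereas the epithelial cadherin Cdh1 was higher (log2 difference 0.44 ± 0.16 SE, adjusted p = 0.025). The call of Cdh1 was lost without KO replicate 1, WT replicate 1 or WT replicate 3 and under TPM scaling, at adjusted p up to 0.456. Among tight junction genes 5 of the 16 tested members were higher and 5 lower, with a median log2 difference of -0.05, near the background in each direction, with 3 higher and 5 lower under TPM scaling. The scaffold Tjp1, also called ZO-1, had 16.7, 18.1, 25.3, 29.4 and 14.2 FPKM in the KO sham lungs, against 69.3, 73.4, 85.6, 82.7 and 78.3 FPKM in the WT sham lungs (log2 difference -1.90 ± 0.18 SE, adjusted p = 1.9e-07). Occludin, Ocln, was lower, with a log2 difference of -0.89, while the claudins Cldn7 and Cldn3 were higher by 1.82 and 1.32.

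**Figure D3:**
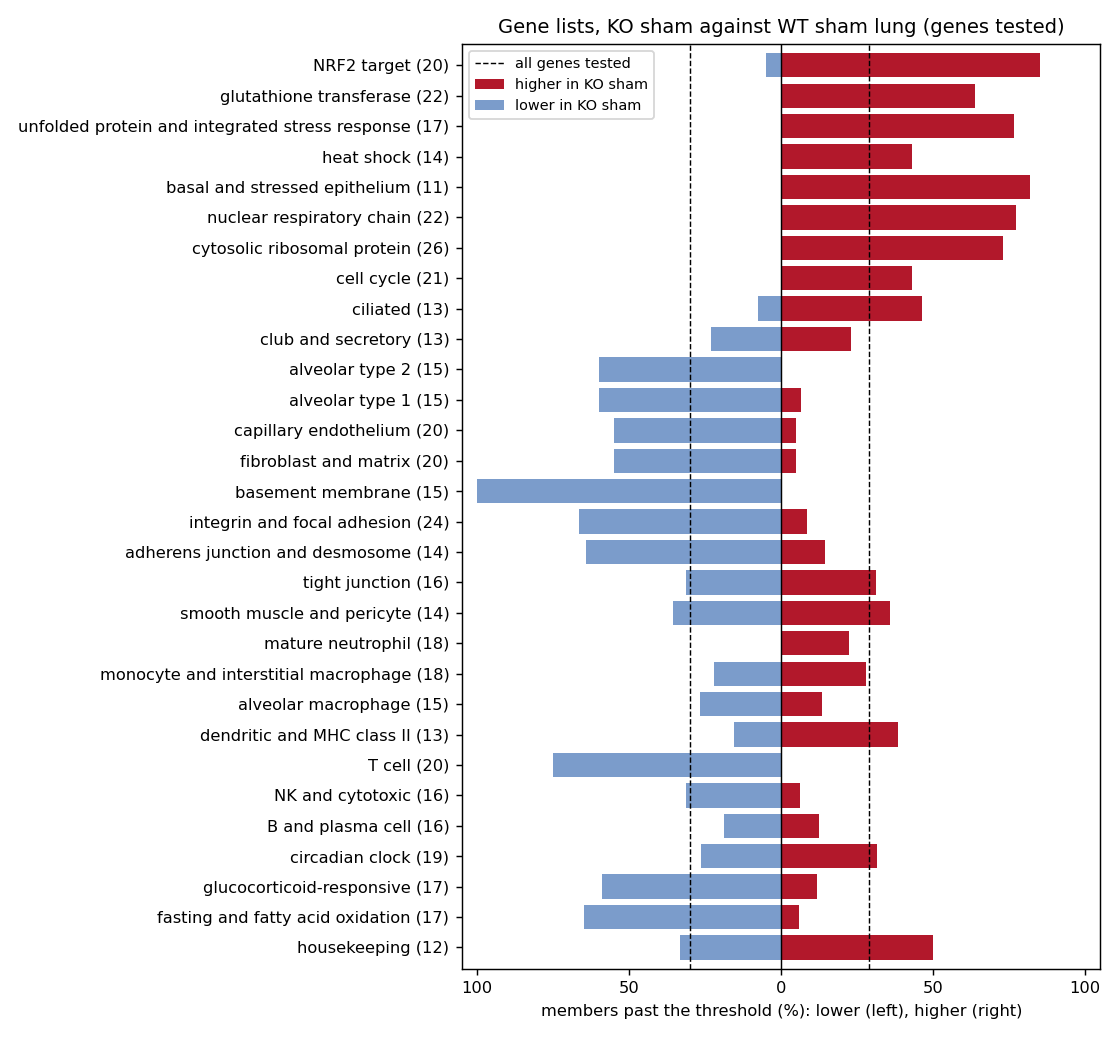
Bars give the percent of tested members of each list past the limma threshold, higher in KO sham to the right in red and lower to the left in blue, with the number tested in brackets and dashed lines at the shares over all genes, 28.8% higher and 30% lower. NRF2, stressed epithelium, respiratory chain and ribosomal lists lie mostly right of the line, and basement membrane, T cell and focal adhesion lists left of it.

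Many vascular and stromal genes were lower. Of the capillary endothelium markers, 1 of the 20 tested members was higher and 11 lower, with a median log2 difference of -0.71. Ednrb, the endothelin receptor of aerocytes, had 5.55, 8.28, 10.9, 13.3 and 9.48 FPKM in the KO sham lungs, against 32.6, 46.1, 42.5, 49.3 and 53.7 FPKM in the WT sham lungs (log2 difference -2.15 ± 0.19 SE, adjusted p = 6.9e-08). Kdr, the main receptor for vascular endothelial growth factor, had 14.9, 19.4, 33.1, 29.7 and 29.8 FPKM in the KO sham lungs, against 66.6, 63.4, 71.7, 73 and 60.6 FPKM in the WT sham lungs (log2 difference -1.42 ± 0.16 SE, adjusted p = 7.6e-07). For both genes the groups were apart. Lyve1, a hyaluronan receptor, and Ptprb, a vascular phosphatase, had log2 differences of -2.43 and -1.83. Egfl7 was higher by 0.64, a call lost without KO replicate 4 and under TPM scaling (adjusted p up to 0.18), and Cldn5 (132 to 863 FPKM in KO sham and 382 to 469 FPKM in WT sham lungs) and Ramp2 (212 to 749.7 FPKM in KO sham and 382 to 597 FPKM in WT sham lungs) were not called. With KO replicates 4 and 5 left out, the counts were 0 higher and 15 lower. Of genes tied to endothelial activation and haemostasis 0 of the 10 tested members were higher and 4 lower, with a median log2 difference of -0.41, among them Plat, tissue plasminogen activator (log2 difference -1.93 ± 0.26 SE, adjusted p = 7.2e-06), and Thbd, thrombomodulin (log2 difference -1.11 ± 0.27 SE, adjusted p = 0.0019). That list held 0 higher and 7 lower without KO replicates 4 and 5.

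Among fibroblast and matrix genes 1 of the 20 tested members was higher and 11 lower, with a median log2 difference of -0.54. Pdgfra, the receptor that marks alveolar fibroblasts, had 8.74, 14.8, 27.8, 24.6 and 22.4 FPKM in the KO sham lungs, against 62.7, 65.2, 67.5, 66.1 and 62.7 FPKM in the WT sham lungs (log2 difference -1.77 ± 0.22 SE, adjusted p = 2.2e-06). Npnt, nephronectin, and Fbn1, fibrillin 1, had log2 differences of -2.03 and -1.76, and elastin, Eln, of -1.37. The fibrillar collagen genes Col1a1, Col1a2 and Col3a1 were not called (adjusted p = 0.22, 0.4 and 0.16). The fibroblast counts without KO replicates 4 and 5 were 0 higher and 12 lower. The single rise was also lost under TPM scaling and without KO replicate 2, 4 or 5 or WT replicate 2, 3, 4 or 5. Of smooth muscle and pericyte genes 5 of the 14 tested members were higher and 5 lower, near the background of 28.8% and 30%, with a median log2 difference of 0.09. Under TPM scaling that median was -0.16, where that over all genes was -0.26. After the length correction the counts were 6 higher and 2 lower. Acta2, smooth muscle actin, was higher at 142, 124, 102, 100.3 and 161 FPKM in the KO sham lungs, against 51.8, 49.2, 51.7, 45 and 46.5 FPKM in the WT sham lungs (log2 difference 1.33 ± 0.18 SE, adjusted p = 5.0e-06), and Tagln, transgelin, by 1.25 on the log2 scale. Mylk, the kinase of myosin light chain, and the receptor Notch3 had log2 differences of -1.51 and -1.75.

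T cell genes were lower. Of the T cell markers, 0 of the 20 tested members were higher and 15 lower, with a median log2 difference of -0.88, and without KO replicates 4 and 5 the counts were 0 higher and 19 lower. Il7r, the interleukin 7 receptor, had 1.47, 1.31, 1.87, 3.91 and 2.56 FPKM in the KO sham lungs, against 6.37, 5.06, 5.32, 5.41 and 4.27 FPKM in the WT sham lungs (log2 difference -1.01 ± 0.18 SE, adjusted p = 0.00013). Cd3e, of the T cell receptor complex, had 0.936, 1.13, 2.09, 6.98 and 2.56 FPKM in the KO sham lungs, against 8.91, 4.92, 6.09, 4.77 and 4.74 FPKM in the WT sham lungs (log2 difference -1.05 ± 0.32 SE, adjusted p = 0.0082). The groups were apart for Il7r, whereas for Cd3e KO replicate 4 lay within the WT range. Cd3d, Cd3g and Lck were not called (adjusted p = 0.68, 0.15 and 0.21). The summed level of the list was 29.1 to 119.9 FPKM in KO sham lungs and 86.2 to 153 FPKM in WT sham lungs.

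For natural killer and cytotoxic genes 1 of the 16 tested members was higher and 5 lower, with a median log2 difference of -0.40, a share lower that is near the background of 30%. The number lower was 1 without KO replicate 1, 2 without WT replicate 1 and 3 without KO replicate 2, 3 or 5 or WT replicate 3 or 5. It was 1 with weights per group and 6 without KO replicates 4 and 5. Ccl5, a chemokine of these cells, had 8.39, 19, 35.3, 105 and 48.3 FPKM in the KO sham lungs, against 181, 81.7, 106, 72.6 and 111 FPKM in the WT sham lungs (log2 difference -1.71 ± 0.57 SE, adjusted p = 0.015), a call that was lost without KO replicate 1 (adjusted p = 0.0531). Among B and plasma cell genes 2 of the 16 tested members were higher and 3 lower, with a median log2 difference of -0.01, below the background. The number lower was 1 without KO replicate 1 or 2 or WT replicate 1, 2 or 4, and 5 without KO replicates 4 and 5. Vpreb3, of the B cell lineage, was higher, at 33.1 to 54.9 FPKM in KO sham and 13 to 20.7 FPKM in WT sham lungs, and the immunoglobulin gene Igha lower, at 5.52 to 71.1 FPKM in KO sham and 36.9 to 106 FPKM in WT sham lungs (adjusted p = 0.0071). Of 83 immunoglobulin variable gene segments tested, 73 were lower and 0 higher, with a median log2 difference of -1.19. These segments resemble each other, so the level of any single segment is uncertain.

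CD177 is a neutrophil gene, and the mature neutrophil markers varied widely between the KO sham lungs. The summed level of the 18 markers was 126 to 3199 FPKM in KO sham and 164 to 407 FPKM in WT sham lungs. S100a8, a subunit of calprotectin, had 20.5, 139, 68.5, 1019.9 and 491 FPKM in the KO sham lungs, against 84.8, 112, 96.3, 70.3 and 42 FPKM in the WT sham lungs, and was not called (adjusted p = 0.2). The KO values ran from below to far above the WT range, with KO replicates 4 and 5 the highest. Of the markers, 4 of the 18 tested members were higher and 0 lower, with a median log2 difference of 0.57, a share below the background of 28.8%. The 4 were Stfa2l1, Hdc, Clec4d and the surface marker Ly6g, at 0.337 to 8.01 FPKM in KO sham and 0.239 to 1.64 FPKM in WT sham lungs (log2 difference 0.98 ± 0.40 SE, adjusted p = 0.042). The number higher depended on single libraries: it was 10 without KO replicate 1 and 8 without KO replicate 3, but 2 without KO replicate 2, 4 or 5 or WT replicate 3, 4 or 5. It was 1 without KO replicates 4 and 5 together, 1 under TPM scaling and 1 after the length correction. Clec4d and Ly6g were not called without KO replicate 2, 4 or 5 or without WT replicate 3, 4 or 5, nor Clec4d without WT replicate 2 or Ly6g without WT replicate 1, at adjusted p up to 0.659 and 0.507. Hdc lost its call under TPM scaling.

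Of the monocyte and interstitial macrophage genes, 5 of the 18 tested members were higher and 4 lower, with a median log2 difference of 0.15, near or below the background in each direction. The counts were 3 higher and 7 lower under TPM scaling, with a median of -0.09 against -0.26 over all genes. They were 3 higher and 6 lower without KO replicates 4 and 5. There were 3 higher without KO replicate 5 alone, and 2 lower without WT replicate 1. Cd14, a lipopolysaccharide co-receptor, had 126, 90.1, 55.2, 39.7 and 61 FPKM in the KO sham lungs, against 29, 22.7, 17.4, 19.8 and 17.6 FPKM in the WT sham lungs (log2 difference 1.67 ± 0.23 SE, adjusted p = 7.5e-06), and the complement gene C1qa a log2 difference of 1.30. Csf1r and Adgre1, receptors of mature macrophages, were lower, with log2 differences of -0.87 and -0.99. Of the alveolar macrophage genes, 2 of the 15 tested members were higher and 4 lower, with a median log2 difference of -0.37, also near or below the background. The counts became 2 higher and 7 lower without KO replicates 4 and 5, and 2 higher and 7 lower under TPM scaling. Members called included the lectin gene Siglecf at 0.102 to 1.55 FPKM in KO sham and 1.67 to 4.47 FPKM in WT sham lungs (log2 difference -1.29 ± 0.26 SE, adjusted p = 0.00037) and the ribonuclease gene Ear1, with a log2 difference of -1.95, while Ctsk, cathepsin K, and the receptor Trem2 were higher by 1.41 and 1.08. Among dendritic cell and MHC class II genes 5 of the 13 tested members were higher and 2 lower, with a median log2 difference of 0.44, including H2-Ab1, an antigen-presenting chain, at 158, 244, 319, 239.6 and 462 FPKM in the KO sham lungs, against 137, 122, 112, 159 and 145 FPKM in the WT sham lungs (log2 difference 0.99 ± 0.26 SE, adjusted p = 0.0031). The counts were 2 higher and 3 lower under TPM scaling and 2 higher and 2 lower without KO replicates 4 and 5. Without KO replicate 5 alone, 3 were higher.

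Retnla, a resistin-like secreted protein known from type 2 immune responses, had 470.3, 303, 315, 349 and 1181 FPKM in the KO sham lungs, against 60.3, 27.1, 38.6, 38.7 and 51 FPKM in the WT sham lungs (log2 difference 3.40 ± 0.34 SE, adjusted p = 3.0e-07). All 5 KO sham lungs were several times above the highest WT value, KO replicate 4 included. Within the resistin-like and chitinase-like genes 2 of the 7 tested members were higher and 1 lower, with a median log2 difference of 0.08, the fall being Chil1 (log2 difference -1.06 ± 0.26 SE, adjusted p = 0.0019), against 2 higher and 2 lower without KO replicates 4 and 5. Uchl1, a ubiquitin hydrolase, had 291, 163, 99.9, 7.32 and 216 FPKM in the KO sham lungs, against 4.71, 5.14, 5.89, 4.23 and 4.77 FPKM in the WT sham lungs (log2 difference 4.04 ± 0.65 SE, adjusted p = 3.8e-05). Gpx2, an epithelial glutathione peroxidase, and Mrpl53, a mitochondrial ribosomal protein, completed the top rises with log2 differences of 2.91 and 2.92.

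Several of the largest falls left little transcript in KO sham lungs, though Itga6, described above, and Sept2 overlapped between the groups. Ston1, an endocytic adaptor of the stonin family, had 0.511, 0.916, 1.96, 2.10 and 0.635 FPKM in the KO sham lungs, against 38.5, 39.1, 51.4, 45.3 and 36.9 FPKM in the WT sham lungs (log2 difference -4.34 ± 0.32 SE, adjusted p = 1.3e-08). Rnf125, a ubiquitin ligase, had 0.377, 0.276, 0.720, 0.779 and 0 FPKM in the KO sham lungs, against 16.4, 17.6, 12.6, 12.8 and 11.6 FPKM in the WT sham lungs (log2 difference -3.42 ± 0.23 SE, adjusted p = 5.5e-09). No KO sham lung reached 3 FPKM in either gene, where no WT sham lung was under 11. Further falls were Mfsd4a at a log2 difference of -3.48, Lrch3 at -3.26, the hyaluronidase Hyal1 at -2.97, the nuclear receptor Nr2c2 at -2.70 and the kinase Hipk2 at -2.66. Sept2 and Nnt were also among the 15, each by 1 of its 2 gene IDs in the table, so their levels are uncertain. Nnt, the mitochondrial transhydrogenase, is known to be disrupted in C57BL/6J and intact in C57BL/6N mice. Its ID with the fall had 0, 1.45, 0, 0 and 0 FPKM in the KO sham lungs, against 7.12, 13.5, 11.1, 12.1 and 10.6 FPKM in the WT sham lungs, and its other ID had 7.92, 7.36, 11.7, 11.8 and 8.29 FPKM in the KO sham lungs, against 8.07, 1.30, 2.95, 3.65 and 5.76 FPKM in the WT sham lungs. Transcripts were thus divided differently between the 2 IDs in the 2 genotypes, and what lies behind this was not tested.

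Over the circadian clock genes 6 of the 19 tested members were higher and 5 lower, with a median log2 difference of 0.22, which is near the background in each direction. The values below are those of single clock genes, with nothing read from their count. BMAL1 (gene Arntl) and CLOCK drive the transcription of clock-controlled genes, among them that of the factor DBP, which peaks when BMAL1 transcript is low. Arntl had 1.28, 3.33, 2.40, 1.53 and 1.61 FPKM in the KO sham lungs, against 15.4, 16.5, 13.2, 13.4 and 10.4 FPKM in the WT sham lungs (log2 difference -2.31 ± 0.22 SE, adjusted p = 2.4e-07). Dbp had 33.9, 12.4, 28.5, 36.1 and 91.9 FPKM in the KO sham lungs, against 3.29, 1.32, 4.78, 8.66 and 17.6 FPKM in the WT sham lungs (log2 difference 2.43 ± 0.50 SE, adjusted p = 0.00041). For Arntl the groups were far apart and for Dbp they overlapped, since KO replicate 2 at 12.4 FPKM was under WT replicate 5 at 17.6. Clock and Npas2, the partners of BMAL1, were lower, with log2 differences of -0.84 and -1.06, that of Npas2 not called without KO replicates 4 and 5 (adjusted p = 0.111).

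Bhlhe40 and Bhlhe41, repressors of the loop, were higher, by 0.83 and 0.75 on the log2 scale. Nr1d1, the repressor REV-ERB alpha, varied within WT sham lungs, at 20.3, 13.5, 16, 29.7 and 32.4 FPKM in the KO sham lungs, against 11.4, 15.9, 47.6, 66 and 70.9 FPKM in the WT sham lungs, and was not called (adjusted p = 0.15). The median over the list was -0.05 under TPM scaling, where that over all genes was -0.26. Without KO replicates 4 and 5 the counts were 5 higher and 5 lower. The labels give no time of tissue collection, and whether the genotypes were collected at the same hour was not tested. The E-box CACGTG was found in 5 of the 16 clock promoters (31.2%) and in 8.09% of all promoters; of the 5, Bhlhe41 was higher and Per1, Cry1, Tef and Ciart were not called.

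**Figure D4:**
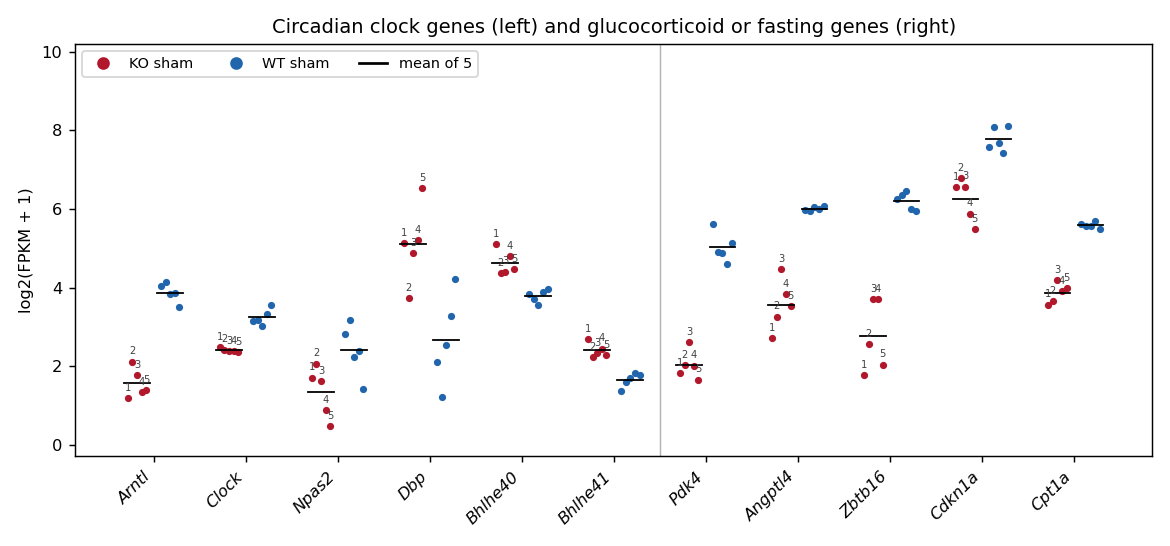
Clock genes (left of the grey line) and genes that respond to glucocorticoids or fasting (right), as log2(FPKM + 1) in each library, KO sham lungs in red left of WT sham lungs in blue, 5 libraries each, numbers marking KO replicates and black lines the means. Arntl, Pdk4, Angptl4 and Zbtb16 are lower in every KO sham lung than in any WT sham lung, and Dbp is higher with an overlap.

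Genes induced by glucocorticoids and by fasting were lower. Of the glucocorticoid-responsive genes, 2 of the 17 tested members were higher and 10 lower, with a median log2 difference of -1.07. Zbtb16, a transcriptional repressor, had 2.41, 4.87, 12, 12.1 and 3.11 FPKM in the KO sham lungs, against 74.6, 81.5, 87.5, 62.8 and 60.4 FPKM in the WT sham lungs (log2 difference -3.45 ± 0.56 SE, adjusted p = 4.1e-05). Pdk4, which restrains glucose oxidation, had 2.55, 3.05, 5.06, 3.04 and 2.15 FPKM in the KO sham lungs, against 48.5, 29, 28.4, 23.3 and 34.2 FPKM in the WT sham lungs (log2 difference -3.01 ± 0.43 SE, adjusted p = 9.9e-06). Both were lower in every KO sham lung. Klf9, Sgk1 and Fkbp5, widely used readouts of the receptor, had log2 differences of -1.29, -1.07 and -1.21, and Cdkn1a, the cell cycle inhibitor p21, of -1.52. The metallothioneins Mt1 and Mt2 were the 2 members that rose, by 1.40 and 1.11 on the log2 scale. Tsc22d3 and Dusp1 were not called (adjusted p = 0.46 and 0.19). With KO replicates 4 and 5 left out, they were 2 higher and 13 lower.

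Of the genes for fasting and fatty acid oxidation, 1 of the 17 tested members was higher and 11 lower, with a median log2 difference of -0.83. Cpt1a, the gatekeeper of fatty acid entry into mitochondria, had 10.8, 11.6, 17.2, 14.1 and 14.9 FPKM in the KO sham lungs, against 47.7, 46.2, 46.7, 50.6 and 44.3 FPKM in the WT sham lungs (log2 difference -1.73 ± 0.12 SE, adjusted p = 1.2e-08). Angptl4, an inhibitor of lipoprotein lipase, had 5.53, 8.59, 21.2, 13.3 and 10.5 FPKM in the KO sham lungs, against 61.4, 60.3, 64.9, 62.4 and 66.6 FPKM in the WT sham lungs (log2 difference -2.44 ± 0.29 SE, adjusted p = 1.8e-06). Acot1, a thioesterase gene, had a log2 difference of -1.81, and the nuclear receptor gene Ppara of -0.69. The oxidation enzymes Acadm, Acadl and Hadhb were not called (adjusted p = 0.9, 0.64 and 0.94). Pdk4 and Angptl4 stand in both lists. The fasting counts without KO replicates 4 and 5 were 0 higher and 10 lower. The single rise was also lost under TPM scaling and without KO replicate 1, 2 or 5 or WT replicate 2, 3, 4 or 5.

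Genes of the translation and respiration machinery were higher. Of the nuclear-encoded respiratory chain genes, 17 of the 22 tested members were higher and 0 lower, with a median log2 difference of 0.93. Uqcrq, of complex III, had 231, 166, 95.6, 85.1 and 309 FPKM in the KO sham lungs, against 39.8, 34.8, 36.4, 32.7 and 45.8 FPKM in the WT sham lungs (log2 difference 2.04 ± 0.28 SE, adjusted p = 7.5e-06), and Cox5a, of complex IV, a log2 difference of 1.74. The mitochondrially encoded genes did not follow, as 1 of the 13 tested members was higher and 1 lower, with a median log2 difference of 0.29. Their counts were 4 higher and 0 lower without KO replicates 4 and 5, 4 and 0 without KO replicate 5 alone, 0 and 3 without KO replicate 1 or 2, and 0 higher and 3 lower under TPM scaling. Of the cytosolic ribosomal protein genes, 19 of the 26 tested members were higher and 0 lower, with a median log2 difference of 0.80. Rpsa, of the small subunit, had 1286, 869.8, 738, 723 and 2329.5 FPKM in the KO sham lungs, against 325, 285, 274, 275 and 372 FPKM in the WT sham lungs (log2 difference 1.81 ± 0.26 SE, adjusted p = 1.2e-05). KO replicate 5 was highest for Uqcrq, Cox5a and Rpsa, and the summed ribosomal level was 15824 to 50742 FPKM in KO sham and 11937 to 16014 FPKM in WT sham lungs. The 50742 was that of KO replicate 5, whose FPKM over all genes summed to 800442. That sum was 548422 to 602739 in the other KO sham lungs and 475884 to 567491 in WT sham lungs. Under TPM scaling the counts were 14 higher and 0 lower for the respiratory chain and 17 higher and 2 lower for ribosomal proteins. After the length correction the counts were 15 higher and 0 lower for the respiratory chain and 17 higher and 2 lower for ribosomal proteins. Without KO replicates 4 and 5 they were 16 higher and 0 lower, and 19 higher and 2 lower.

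The direction of a call varied with transcript length across all genes. When tested genes with an annotated length were ordered into 10 bins of equal size, 33.9% were higher and 22.7% lower in KO sham lungs in the bin of the shortest genes, with a median length of 439 bases. In the bin of the longest genes, with a median of 4200 bases, 6.86% were higher and 58.2% lower, and the median log2 difference was -0.45. The correction brought that median to 0.02. Lists of long genes (basement membrane) and short genes (ribosomal proteins) moved in the direction of this trend, and their corrected counts are given above. The cause of the trend was not tested.

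**Figure D5:**
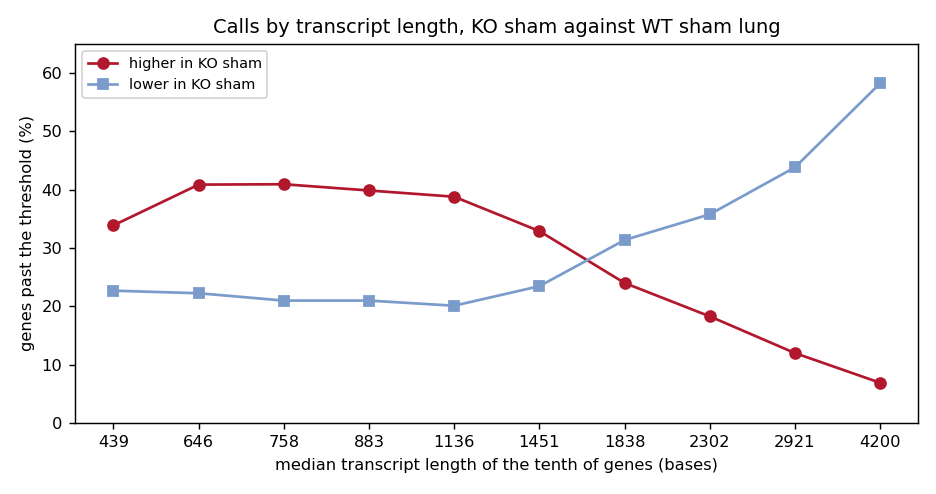
Percent of genes called higher (red circles) and lower (blue squares) in KO sham against WT sham lungs, for 10 bins of genes ordered by transcript length, with the median length in bases on the x axis. The share higher is 33.9% in the shortest and 6.86% in the longest bin, and the share lower 22.7% and 58.2%.

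The shares called in other functional lists are set here beside the background of 28.8% higher and 30% lower. Of cell cycle genes 9 of the 21 tested members were higher and 0 lower, with a median log2 difference of 0.47. The counts were 6 higher and 2 lower without KO replicates 4 and 5, and 5 higher and 0 lower under TPM scaling. The list included Birc5, survivin, at 6.01, 4.18, 4.89, 6.42 and 9.91 FPKM in the KO sham lungs, against 1.84, 1.27, 1.59, 1.13 and 2.91 FPKM in the WT sham lungs (log2 difference 1.39 ± 0.24 SE, adjusted p = 6.6e-05), and Mki67 not called (adjusted p = 0.36). Among heat shock genes 6 of the 14 tested members were higher and 0 lower, with a median log2 difference of 0.33, led by Hspe1, a mitochondrial chaperonin (log2 difference 1.43 ± 0.24 SE, adjusted p = 6.6e-05), while the inducible Hspa1a and Hspa1b were not called. Of immediate early genes 8 of the 19 tested members were higher and 3 lower, with a median log2 difference of 0.30, or 6 higher and 5 lower under TPM scaling. Among them were Jund at 477, 478, 422, 495 and 533 FPKM in the KO sham lungs, against 226, 189, 175, 165 and 220.1 FPKM in the WT sham lungs (log2 difference 1.30 ± 0.13 SE, adjusted p = 4.0e-07) and Jun lower, with a log2 difference of -0.90. For p53 targets 3 of the 13 tested members were higher and 4 lower, with a median log2 difference of 0.04, near the background. Without KO replicates 4 and 5 they were 5 higher and 4 lower, and the pro-apoptotic gene Bax was higher by 1.46. For cytochrome P450 and other drug-metabolising enzymes 8 of the 22 tested members were higher and 7 lower, with a median log2 difference of -0.20, including the carboxylesterase gene Ces1g (log2 difference 2.78 ± 0.48 SE, adjusted p = 7.5e-05) and the flavin monooxygenase Fmo2 (log2 difference -1.20 ± 0.21 SE, adjusted p = 7.5e-05). Of these, 5 were higher without KO replicate 1 or WT replicate 3 or 4, and TPM scaling gave 2 higher and 8 lower. For lipogenesis 3 of the 15 tested members were higher and 6 lower, with a median log2 difference of -0.30, with Acly, which makes cytosolic acetyl-CoA, at a log2 difference of -1.44 and its regulator Srebf1 at 0.82. For ion and water transport 1 of the 13 tested members was higher and 4 lower, with a median log2 difference of -0.22, a share higher that is below the background. TPM scaling gave 1 higher and 7 lower. Aqp1, the capillary water channel, was at 36.7, 97, 237, 176 and 176 FPKM in the KO sham lungs, against 346, 370.4, 382, 392 and 393 FPKM in the WT sham lungs (log2 difference -1.62 ± 0.36 SE, adjusted p = 0.00071).

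Interferon genes were mostly not called: of the type I interferon-stimulated genes, 2 of the 20 tested members were higher and 2 lower, with a median log2 difference of 0.32, and of the interferon gamma effectors, 1 of the 17 tested members was higher and 0 lower, with a median log2 difference of -0.08. The type I counts were 5 higher and 1 lower without KO replicates 4 and 5. There were 5 higher without KO replicate 4 alone, 4 without KO replicate 1 and 1 without KO replicate 2 or 3. Without KO replicate 1, 3 gamma effectors were higher. Inflammatory cytokines and chemokines gave a like picture, as 2 of the 15 tested members were higher and 3 lower, with a median log2 difference of -0.07, with 2 higher and 5 lower under TPM scaling and 4 higher without KO replicate 3. Of the RNA processing genes with detained introns, 6 of the 22 tested members were higher and 5 lower, with a median log2 difference of -0.18, or 2 higher and 10 lower under TPM scaling. Markers of tissue that can be cut along with lung were also mostly uncalled. Of cardiac muscle genes 0 of the 12 tested members were higher and 1 lower, with a median log2 difference of -0.63, of adipocyte genes 0 of the 8 tested members were higher and 1 lower, with a median log2 difference of -0.50, and of haemoglobin and erythroid genes 1 of the 9 tested members was higher and 0 lower, with a median log2 difference of -0.44. Without KO replicates 4 and 5 the counts were 0 higher and 0 lower, 0 higher and 0 lower, and 1 higher and 2 lower in the same order. The single cardiac call was also lost without KO replicate 3, 4 or 5 or WT replicate 1 or 5. Few calls do not mean like amounts, as the summed levels varied widely between libraries. Cardiac genes summed to 66.3 to 586 FPKM in KO sham and 127 to 591 FPKM in WT sham lungs. For adipocyte genes the sums were 46.7 to 200 and 138 to 274 FPKM. Haemoglobin and erythroid genes summed to 1150 to 12340 FPKM in KO sham, lowest in KO replicate 1, and 5516 to 14981 FPKM in WT sham lungs. Genes used as loading controls differed as well, as 6 of the 12 tested members were higher and 4 lower, with a median log2 difference of 0.40, with Gapdh at 592, 460.0, 369.5, 259.7 and 376 FPKM in the KO sham lungs, against 208, 165, 154, 155 and 173 FPKM in the WT sham lungs (log2 difference 1.22 ± 0.29 SE, adjusted p = 0.0015), Polr2a lower, with a log2 difference of -1.24 and Eef1a1 not called (adjusted p = 0.17).

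The genotype comparison in the AP lungs, which shares no library with that in the sham lungs, called 8908 genes (55.8%). Of these, 7190 were also called in sham lung, which is 76.5% of the sham calls and 80.7% of the AP calls, against 26.1% called in AP among genes not called in sham. The direction was the same for 7182 and opposite for 8. No gene passed the test of the difference between the sham and the AP comparison (limma, 0 of 15978), and 1384 (8.66%) had an unadjusted p under 0.05. The log2 difference of Arntl was -2.31 in sham and -0.61 in AP lungs, and that of Dbp 2.43 and 0.05, neither difference being called. Retnla had 3.40 and 3.17, Gsta1 6.30 and 6.17, and Ston1 -4.34 and -3.92.

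In list counts, AP lungs had 15 higher and 1 lower for NRF2 targets, 0 higher and 12 lower for basement membrane and 8 higher and 0 lower for stressed epithelium, against 17 and 1, 0 and 15, and 9 and 0 in sham lungs. For the unfolded protein and integrated stress responses the AP counts were 6 higher and 0 lower, against 13 and 0 in sham lungs, and for natural killer and cytotoxic genes 0 higher and 15 lower, against 1 and 5. Over all genes 55.8% were called in AP lungs in either direction, and that share was not split by direction. The AP counts are therefore listed with no reading of each list.

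The sham colons of the same genotypes, 5 against 5 libraries in a table of their own, called 4704 of 15001 genes (31.4%). Of 13635 genes tested in both tissues, 3592 were called in both, which is 43.9% of the lung calls and 81.1% of the colon calls. The direction was the same for 3527 and opposite for 65. Ston1, with a log2 difference of -4.34 in lung and -2.08 in colon, and Rnf125 with -3.42 and -1.80 were called lower in both. Slc34a2 was lower in both as well, with -1.85 and -3.00, and so was Arntl, with -2.31 and -1.98. Cldn4 was higher in lung, by 4.08, and lower in colon, with -1.31 (adjusted p = 0.021). Of the NRF2 targets, colon had 9 higher and 1 lower of 19 tested, and of stressed epithelium genes 1 higher and 1 lower of 10 tested. The 31.4% over all colon genes counts both directions. Whether the lung and colon libraries of a number came from the same mouse is not stated in the labels, and the difference between the tissues was not tested.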

How the data were processed

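RNA from mouse lung and colon was sequenced on an Illumina NovaSeq after enrichment of mRNA, per the labels' protocols. Per the submitters' processing notes, the tools were HISAT2 (version 2.1.0) and StringTie (version 1.3.3b), with mm39 as the build. The authors deposited a table of FPKM per gene for each tissue, and no counts were used here. Library totals were recovered from the FPKM steps, as low values were whole multiples of 1 read within a tolerance of 0.05 for 98.9% to 99.3% of the low values checked.

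The 20 lung libraries (4 groups of 5) were fitted together with limma 3.58.1 in R 4.3.3 (trend on log2(FPKM + 1), a mean per group, Benjamini-Hochberg adjustment over 15978 genes, threshold 0.05, no minimum fold). Fold changes are on the log2(FPKM + 1) scale, which understates those of low genes. The 19 colon libraries were fitted separately in the same way. Values of single measures were compared with exact two-sided permutation tests. Values of 5 libraries are given in replicate order. The fit was also run on simulated libraries with independent errors and few changed genes. That differs from these data, where most genes were called.

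Genes named are Cd177, the 15 largest rises and 15 largest falls whose group mean reached 2 FPKM in either genotype, the 6 members of each gene list with the lowest p, other called list members, and the 5 genes on each side of Cd177. Antigen receptor segments and genes without an established symbol were left out of the 15, and some genes that fall under these rules are not reported here. Members of lists named as not called, Nfe2l2, Keap1, Psat1 and Shmt2 were added after their values were seen. The members and the 56 gene lists (753 genes tested) were chosen with earlier results of these data known. Promoters were from RefSeq on GRCm38.p6, and lengths and names from the GENCODE annotation of GRCm38. No coordinates of the mm39 files were used. Alternatives covered the pseudocount, filters, scaling, samples, replicate block, group weights, length and each library.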

Additional observations from a re-analysis of the deposited data

Results flagged for a closer look

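Among 439 sets of 5 libraries of the named genes and library measures, 20 had a library far from the other 4 by Dixon's test, and chance alone gives about 1 in 20. KO replicate 4 accounted for 6 of these. Gsta1 was at 0.684 FPKM there, against 163 to 554 in the other KO sham lungs, and Acadl at 45.6, against 73.2 to 76.0. Itgam was at 9.72 FPKM in KO replicate 4 against 1.75 to 2.41, Itgb2 at 28.2 against 8.35 to 11.6, Polr2a at 20.2 against 12.1 to 13.9 and Scgb1a1 at 75845 against 25082 to 32598. In KO replicate 5, Vcl was at 0.636 FPKM against 4.10 to 5.65, and Dst at 0.907 against 3.82 to 5.03. In KO replicate 2, the Nnt ID that fell was at 1.45 FPKM, against 0 in the other KO sham lungs.

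In WT sham lungs, replicate 1 stood apart for Gsr (29.5 FPKM), Hadhb (49.9), Krt15 (8.11) and Muc16 (4.84). WT replicate 5 stood apart for Hspe1 (68.6 FPKM), Xbp1 (122.1), Notch3 (14.9, the lowest) and Siglecf (1.67, the lowest). WT replicate 2 stood apart for Gdf15 (0.425 FPKM, the lowest) and Slc7a11 (0.217, the highest), and WT replicate 3 for Mrpl53 (10.5, the highest).

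Ctsk, cathepsin K, was higher in every KO sham lung than in any WT sham lung (log2 difference 1.41) and lower in every KO sham colon than in any WT sham colon (log2 difference -0.62). The difference between the tissues was not tested.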

How the results depend on the processing

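The number of genes called between KO and WT sham lungs was within 1.5 times the reported 9393 under each alternative other than the minimum fold. The filters also changed the number tested, with 10004 of 36781 genes called with no filter on low values and 7228 of 11129 at 5 FPKM. As a share of genes tested, the first is below and the second above the reported 58.8%. The number called was 9383 with a pseudocount of 0.1, 9100 as TPM, 9335 with upper quartile scaling and 8923 in the sham libraries alone. It was 8886 with weights per group, 8838 after length correction and 9543 without KO replicates 4 and 5. Leaving out each lung library in turn gave 8596 to 9789. TPM scaling moved the higher calls to 2891. A minimum fold of 2 left 2582, with 1299 higher and 1283 lower. The replicate numbers did not pair the samples (correlations of deviations between -0.020 and 0.150), and a fit with the replicate number as a block called 9274. The difference between the sham and AP comparisons called 1 gene with a pseudocount of 0.1, 1 with weights per group and 0 to 2 when each library was left out. Leaving out each sham library moved the KO minus WT difference in the mitochondrial share between -0.157 and 1.38 percentage points and that in the share of the 20 most abundant genes between -1.33 and 0.694. Of 171 called results for named genes, 149 passed under each alternative that tests them, 22 missed under at least 1, and 0 reversed. Depth, genotype and any processing batch that went with them cannot be told apart. FPKM of low genes are limited by counting error, which no interval here covers.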
